A study of Mus musculus with 4 samples.

Results

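The period genes Per1, Per2 and Per3, the cryptochrome genes Cry1 and Cry2, and Bhlhe40 encode the repressor side of the mammalian circadian clock. Their messenger RNA was read in mouse liver through 8 probe sets of the Affymetrix MG_U74Av2 GeneChip, which are all those annotated to exactly one of these 6 symbols, of 12422 probe sets on the array other than controls. Every gene has 1 probe set except Cry1, which has 3. Livers of male C57BL/6 mice were sampled after bilateral adrenalectomy (ADX) or a sham operation, at zeitgeber time (ZT) 14 or ZT2, in hours after lights on, with 1 array for each of the groups ADX ZT14, ADX ZT2, sham ZT14 and sham ZT2. ADX mice were operated from the back under ketamine (91 mg/kg) and xylazine (3.6 mg/kg) and drank 0.9% NaCl, while sham mice drank water, and both ate standard chow. The anaesthetic of the sham mice, the number of animals behind an array and the corticosterone left in the blood after surgery are not stated in the labels.

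In the core feedback loop of the clock, CLOCK and BMAL1 bind E-box sequences and switch on the Per and Cry genes. PER and CRY proteins then enter the nucleus together and repress CLOCK and BMAL1, until casein kinases and ubiquitin ligases bring about their removal. BHLHE40, also called DEC1, is a basic helix-loop-helix protein that binds the same E-boxes and represses there too. Glucocorticoids from the adrenal gland are one of the signals that reach peripheral clocks, and Per1 is a known target of the glucocorticoid receptor in mouse liver.

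The RefSeq promoter table of build GRCm38.p6 matched 4 of the 6 genes, in 5 windows, and had no entry for Per2 and Bhlhe40. Shown are the 4 stretches upstream of the listed starts that held any of the letter strings marked in capitals. Capitals mark the E-box CACGTG, which CLOCK and BMAL1 bind, its variant CACGTT on either strand, and the D-box, the element of DBP, TEF and NFIL3, as TTATGTAA. Bases inside the annotated gene were left out where its outer end fell in the window.
Per1, chr11:69098699-69098948, plus strand: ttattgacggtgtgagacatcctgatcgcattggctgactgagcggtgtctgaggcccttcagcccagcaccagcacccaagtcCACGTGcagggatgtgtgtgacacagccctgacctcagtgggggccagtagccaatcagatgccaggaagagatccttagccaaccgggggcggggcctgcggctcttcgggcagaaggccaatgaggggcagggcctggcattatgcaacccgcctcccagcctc
Per3, chr4:151044708-151044915, minus strand: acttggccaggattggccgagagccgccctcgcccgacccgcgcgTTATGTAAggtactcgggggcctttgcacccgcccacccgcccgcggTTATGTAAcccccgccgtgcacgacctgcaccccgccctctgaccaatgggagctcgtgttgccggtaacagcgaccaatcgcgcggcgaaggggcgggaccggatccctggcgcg
Cry1, chr10:85185055-85185304, minus strand: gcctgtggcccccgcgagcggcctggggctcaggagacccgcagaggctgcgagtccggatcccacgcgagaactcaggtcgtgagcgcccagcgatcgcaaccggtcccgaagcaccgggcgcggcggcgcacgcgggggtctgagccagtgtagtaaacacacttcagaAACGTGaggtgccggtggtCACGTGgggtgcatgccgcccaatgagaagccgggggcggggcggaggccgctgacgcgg
Cry2, chr2:92434086-92434319, minus strand: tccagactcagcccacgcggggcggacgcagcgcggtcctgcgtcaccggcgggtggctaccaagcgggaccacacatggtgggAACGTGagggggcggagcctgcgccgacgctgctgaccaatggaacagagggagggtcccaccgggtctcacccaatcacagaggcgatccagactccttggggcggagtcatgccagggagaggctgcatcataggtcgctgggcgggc
The letters were searched on both strands of the 250 bases before each start. The E-box, which reads the same on both strands, was found once in the first window of Per1, 166 bases before the listed start, and once in Cry1, 60 bases before it. Among all 32851 windows of this length, 6.02% held it. The variant CACGTT was found in Cry1 at 79 bases and in Cry2 at 166 bases before the start, against 3.85% of all windows. Per3 held 2 D-boxes, at 205 and 158 bases before the start, where 0.819% of all windows held any. The half-site of the glucocorticoid response element, AGAACA, was in none of the 5 windows, against 16.1% of all windows. A search of 5 windows of 250 bases, with none for Per2 and Bhlhe40, cannot show that these genes lack such sites. The letters TGACGTC, part of the cAMP response element, were in the other window of Per1 (2.78% of all windows). These matches describe letters and are not binding sites measured here.

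Signals are given in the arrays' own linear units after scaling to a common mean, and a probe set is Present, Marginal or Absent by the detection call deposited with it. With 1 array per group there is no replicate error for any difference, and the number of arrays limits the precision. Calls therefore rest on size: a gene counts as called where the arrays differ by 2-fold or more (1 on the log2 scale) and the brighter one is Present. Where the dimmer array was Absent the fold is written as at least that size, against the higher of its signal and a floor of 3.91 units. As a yardstick, each log2 difference is set beside the robust SD of the same difference over the 500 probe sets nearest to it in mean signal, called the spread at that signal below. It holds true differences of other genes as well as noise. All 6 genes were Present on at least 1 array, as were 5007 of the 8251 genes with a probe set of their own.

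The arrays carried liver RNA. Of 9 hepatocyte markers on the array, 9 were Present at ADX ZT14, at ADX ZT2 and at sham ZT14, and 8 at sham ZT2, with albumin between 9149 and 9736 units. The bile duct markers Krt19, Krt7 and Epcam and the muscle markers Acta1, Myh4 and Ckm were Absent on all arrays. Of 8 Kupffer and immune markers 5 or 6 were Present, and the summed signal of all 8 ran from 635.9 to 756.5 units over the 4 arrays. Of 4 stellate cell markers 2 and 3 were Present on the ADX arrays (ZT14 and ZT2), against 1 on each sham array. Col1a1 and Col1a2 were Marginal at sham ZT2, and Col1a1 was Marginal at ADX ZT14. The summed signal of all 4 markers, with Des Absent throughout, was 137.7 and 103.5 units in ADX and 90.9 and 76.5 units in sham. The red cell markers Hba-a1 and Alas2, both Present on every array, summed to 1960 units at ADX ZT14 and 1468 at ADX ZT2, against 1052 at sham ZT14 and 1755 at sham ZT2. Cela1, the 1 exocrine pancreas marker of 5 on the array, was Present throughout and lower at ZT14 in both operations, with 91.1 units at ZT14 and 138.7 at ZT2 in ADX livers and 71.0 at ZT14 and 128.7 at ZT2 in sham livers. Of 4 endothelial markers 2 were Present on every array. The summed signal of all 4 markers, with Pecam1 and Vwf Absent throughout, ran from 103.6 to 110.8 units. The fat markers Adipoq and Lep were Absent on all 4 arrays. The part of these cells in the differences below was not tested, and in whole liver fewer cells of a type and less RNA per cell cannot be told apart.

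Per2 and Bhlhe40 were the 2 repressor genes at least 2-fold higher at ZT14 than at ZT2, in livers without adrenal glands and in sham livers. Per3 went the other way and passed 2-fold in ADX livers. Per1, Cry1 and Cry2 passed 2-fold in neither. In ADX livers 3 of the 6 genes were called, 2 higher at ZT14 and 1 lower, where 4.63% of all measured genes were called in either direction. In sham livers 2 of 6 were called, both higher, where 5.19% of all measured genes were called. The median log2 difference of the 6 genes was 0.51 in ADX and 0.59 in sham, and that of all measured genes was 0.0074 in ADX and -0.0023 in sham.

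**Figure D1:**
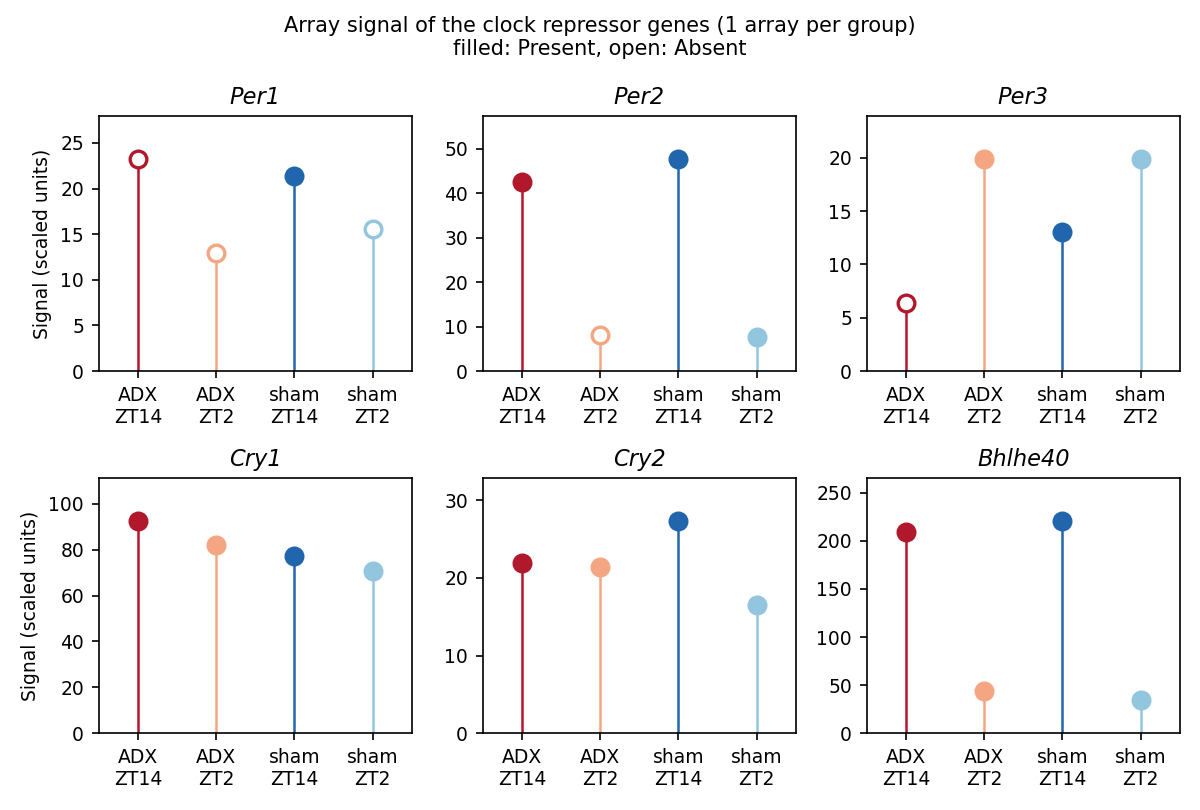
Scaled array signal (vertical axis, linear from 0, in array units, a separate scale for each gene) of the 6 repressor genes on the ADX ZT14, ADX ZT2, sham ZT14 and sham ZT2 arrays, 1 point per array. Filled points were Present and open points Absent. Per2 and Bhlhe40 stand high on both ZT14 arrays, Per3 is lowest on the ADX ZT14 array, and Cry1 lies between 70.7 and 92.5 units throughout.

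Per2, a period gene that mice need for a lasting rhythm, had 42.5 units at ZT14 and 8.13 at ZT2 in ADX livers, and 47.8 at ZT14 and 7.77 at ZT2 in sham livers. Both ZT14 arrays were far above both ZT2 arrays, and the ADX and sham arrays of a time lay closer to each other than to the arrays of the other time. The log2 difference between the times was 2.39 in ADX, where the ZT2 array was Absent, so that Per2 was at least 5.22-fold higher, and 2.62 in sham, a 6.15-fold difference with both arrays Present. The spread at that signal was 0.44 in ADX and 0.45 in sham. With the floor raised to 23.9 units, the 95th percentile of signals called Absent, the difference was 0.83 in ADX, under 2-fold, and barely past 2-fold in sham.

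Bhlhe40 was Present on every array, with 209.5 units at ZT14 and 44.0 at ZT2 in ADX livers, against 220.9 at ZT14 and 34.8 at ZT2 in sham livers. As with Per2, the times separated in both operations. It was 4.76-fold higher at ZT14 in ADX (log2 2.25) and 6.35-fold higher in sham (log2 2.67), beside a spread of 0.31 in ADX and 0.33 in sham. Its call held at each floor on dim signals from 1 to 23.9 units.

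Per3, a period gene whose loss has mild effects on the clock in mice, had 6.40 units at ZT14 and 19.9 at ZT2 in ADX livers, against 13.0 at ZT14 and 19.9 at ZT2 in sham livers. The ZT2 arrays of both operations lay close together, and the ADX ZT14 array, the only Absent one, was the lowest. In ADX it was at least 3.11-fold lower at ZT14 (log2 -1.64, spread 0.48). In sham the log2 difference was -0.61, close to the spread of 0.58 and short of 2-fold. Per3 was dim throughout: with the floor at 23.9 units all 4 arrays fell to the floor and the difference was 0.00 in both pairs.

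Per1 was Present on the sham ZT14 array alone. Its signal was 23.3 units at ZT14 and 12.9 at ZT2 in ADX livers, and 21.4 at ZT14 and 15.5 at ZT2 in sham livers. The ZT14 arrays were the higher ones in both operations, by a log2 difference of 0.85 in ADX (spread 0.49) and 0.46 in sham (spread 0.50), both under 2-fold. Before scaling, the Absent ADX ZT14 array (21.8 units) and the Present sham ZT14 array (21.9 units) were practically equal. Since both ZT2 arrays and the ADX ZT14 array were Absent, the size of the Per1 difference is poorly fixed here.

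The cryptochrome genes, whose proteins are the stronger repressors of CLOCK and BMAL1, passed 2-fold in neither pair. The brightest Cry1 probe set, whose name ends in f, was Present on every array, at 92.5 units at ZT14 and 82.0 at ZT2 in ADX livers and 77.1 at ZT14 and 70.7 at ZT2 in sham livers. Its log2 difference between times was 0.17 in ADX (spread 0.30) and 0.13 in sham (spread 0.30). That suffix marks a probe set that can also detect similar sequences. The other 2 Cry1 probe sets were Absent on all 4 arrays, with signals of at most 2.64 units, and add no measurement. The deposited description ties the dimmer of them to an expressed sequence tag and not to the Cry1 messenger. Cry2 was Present on every array, with 22.0 units at ZT14 and 21.4 at ZT2 in ADX livers, against 27.4 at ZT14 and 16.6 at ZT2 in sham livers. Its sham arrays were the highest and the lowest of the 4, with both ADX arrays between them. The log2 difference was 0.04 in ADX (spread 0.47) and 0.72 in sham (spread 0.45), which is under 2-fold.

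**Figure D2:**
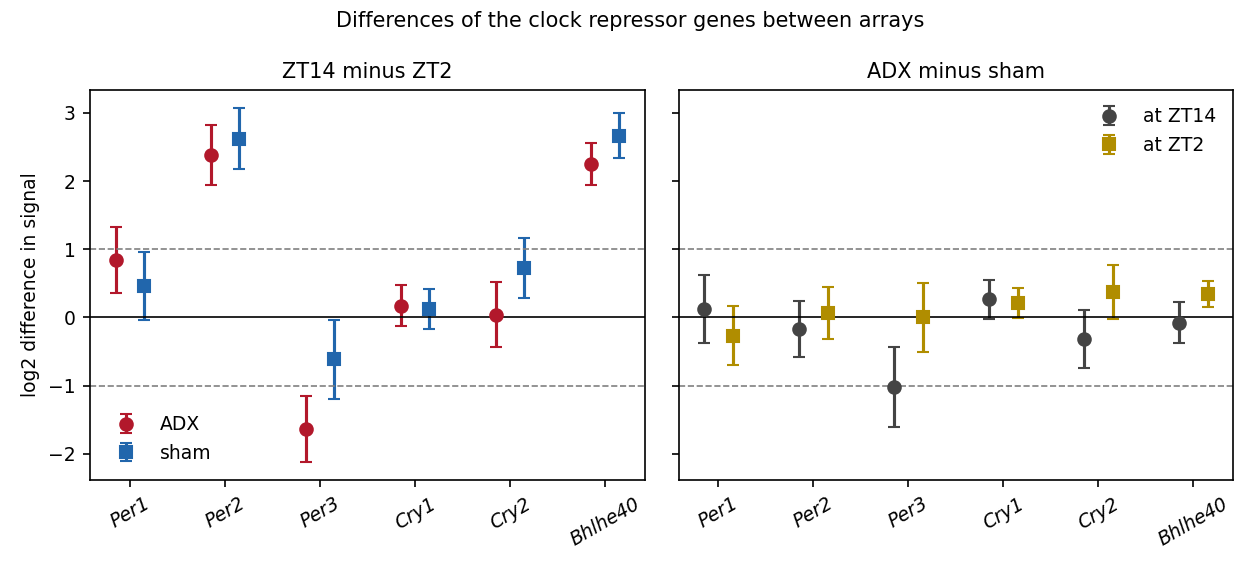
Log2 differences in signal of the 6 repressor genes, ZT14 minus ZT2 in ADX and sham (left) and ADX minus sham at ZT14 and ZT2 (right). Each point is 1 array minus 1 array, the bars are plus and minus the robust SD of that difference over the 500 probe sets of nearest signal, not a replicate error, and dashed lines mark 2-fold. Per2 and Bhlhe40 lie between 2.25 and 2.67 on the left, and Per3 at ZT14 is the only point past 2-fold on the right.

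Both pairs of arrays can be read together by taking the operations as samples of each time. In a limma fit with additive terms for time and operation, over 5872 probe sets and with 1 residual degree of freedom, the effect of ZT14 over ZT2 was 2.50 on the log2 scale for Per2 (SE 0.16, Benjamini-Hochberg adjusted p = 0.0921) and 2.46 for Bhlhe40 (SE 0.19, adjusted p = 0.100), each higher in both pairs. Neither passed an adjusted p of 0.05 over all probe sets, which 0.0341% of them did, and they stood at ranks 5 and 10 of the table. Over the alternative settings their adjusted p ran from 0.00470 to 0.421 for Per2 and from 0.000666 to 0.421 for Bhlhe40. The limma effect was -1.13 for Per3 (SE 0.30, adjusted p = 0.318), 0.38 for Cry2 (SE 0.23, adjusted p = 0.529) and 0.15 for Cry1 (SE 0.15, adjusted p = 0.703). Per1 was left out of the fit because it was Present on fewer than 2 arrays. The SEs and p-values of this fit do not rest on a gene's own spread alone. For each probe set, limma combined its own residual variance with a prior variance estimated from all 5872 probe sets. That prior had more degrees of freedom than the 1 residual degree of freedom, and so more weight. The sham and ADX arrays stand in for replicates of a time, so the p-values hold no replicate error within a group.

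Between ADX and sham livers at matched times, Per3 at ZT14 was the only repressor gene past 2-fold. At ZT2, 0 of 6 genes passed 2-fold between ADX and sham, where 2.16% of measured genes did. Of these log2 differences, Cry2 had 0.37 (spread 0.40), Bhlhe40 0.34 (spread 0.19) and Per1 -0.27 (spread 0.44), with both Per1 arrays Absent. Their order depends on the scaling: with signals as deposited Per1 had -0.44, Cry2 0.20 and Bhlhe40 0.17, and with quantile normalization Per1 had -0.37, Cry2 0.27 and Bhlhe40 0.28. The median of all measured genes for ADX minus sham was 0.03 at ZT14 and 0.01 at ZT2 after scaling, and -0.10 at ZT14 and -0.16 at ZT2 with signals as deposited. At ZT14, 1 of 6 passed, where 3.14% of measured genes did. It was Per3, at least 2.03-fold lower in ADX (log2 -1.02, spread 0.58), with the ADX array Absent. Doubling the floor to 7.82 units brought that difference to -0.73, under 2-fold. Per2 had -0.17 and Bhlhe40 -0.08 at ZT14. Per1, the known glucocorticoid target, had 0.12 there with the ADX array Absent, so its level in ADX is not fixed well enough to read a difference or its absence. Cry1 was 0.26 higher in ADX on the log2 scale at ZT14 and 0.21 at ZT2, beside a spread of 0.29 at ZT14 and 0.22 at ZT2, and 0.14 at ZT14 and 0.04 at ZT2 with signals as deposited. In the additive limma fit the operation effect of the 5 tested genes ran from -0.51 for Per3 (SE 0.30, adjusted p = 0.835) to 0.24 for Cry1 (SE 0.15, adjusted p = 0.853). That limma fit called 0 of 5872 probe sets (0.00%) for operation, with 329 at an unadjusted p under 0.05.

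The day-night difference in ADX minus that in sham was -1.02 for Per3, -0.68 for Cry2, -0.41 for Bhlhe40, -0.24 for Per2, 0.05 for Cry1 and 0.39 for Per1, on the log2 scale. Per3 alone passed 1, as did 7.51% of measured genes in either direction. It no longer did with signals as deposited (-0.98) or with the doubled floor (-0.73), and was 0.00 with the floor at 23.9 units. The robust SD of this quantity was 0.37 over the 4877 probe sets Present on all arrays, and over the 500 nearest in signal it was 0.77 for Per3, 0.60 for Cry2, 0.35 for Bhlhe40, 0.56 for Per2, 0.40 for Cry1 and 0.63 for Per1. Per3, Cry2 and Bhlhe40 lay slightly beyond 1 such SD, and the other genes within it. The share of all genes beyond 1 SD was not counted, so this line does not separate changed genes from unchanged ones. The Cry2 value also depended on the floor, and was -0.20 with 23.9 units. With 1 array per group the difference between the pairs cannot be tested.

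**Figure D3:**
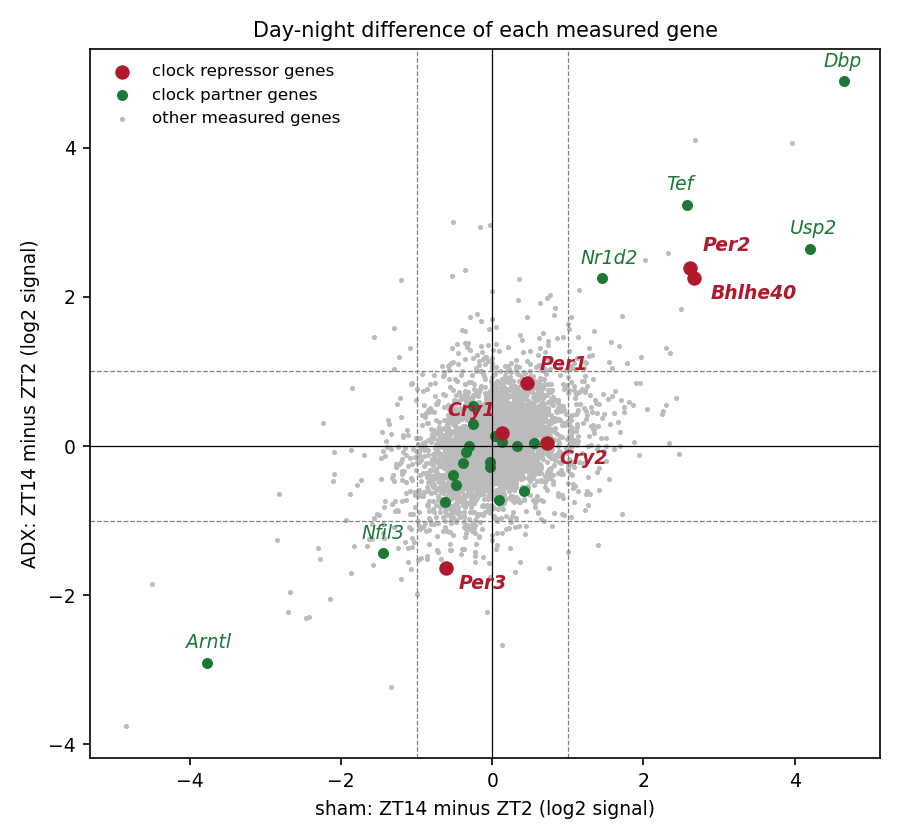
Day-night difference (ZT14 minus ZT2, log2 signal) in ADX on the vertical axis against sham on the horizontal axis, 1 point for each of 5007 measured genes. Red points are the 6 repressor genes, green points the 22 measured clock partner genes, grey points all others, and dashed lines mark 2-fold. Per2 and Bhlhe40 lie next to each other in the upper right near Tef, and Per3 lies lower left of the centre.

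The genes around the repressors were read from a list of 38 clock activators, output factors, kinases, ubiquitin ligases and cofactors, of which 26 were on the array and 22 were measured. At ZT14 against ZT2, 4 were called higher and 2 lower in ADX, and 4 higher and 2 lower in sham. Of all measured genes, 4.63% were called in either direction in ADX and 5.19% in sham. The medians over the 22 genes were -0.04 in ADX and -0.02 in sham. Those of all measured genes were 0.0074 in ADX and -0.0023 in sham. Arntl, which encodes BMAL1, had the largest difference downward: 9.29 units at ZT14 and 69.6 at ZT2 in ADX livers, where it was at least 7.50-fold lower, and 5.47 at ZT14 and 74.9 at ZT2 in sham livers. Its direction was opposite to that of Per2 and Bhlhe40 in both pairs. Nfil3, the repressor at D-boxes, was the other gene called lower in both pairs. Higher in both were the D-box activators Dbp and Tef, the Rev-erb gene Nr1d2 and the ubiquitin protease gene Usp2. Tef had 197.3 units at ZT14 and 21.0 at ZT2 in ADX livers, and 208.3 at ZT14 and 35.0 at ZT2 in sham livers, a log2 difference of 3.23 in ADX and 2.57 in sham. Clock, the partner of BMAL1, had -0.39 in ADX and -0.52 in sham, and the Rev-erb gene Nr1d1 0.53 in ADX and -0.26 in sham, none past 2-fold.

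The enzymes that mark PER and CRY for removal did not pass 2-fold by their brightest probe sets. Csnk1d, a casein kinase that phosphorylates PER, had 130.8 units at ZT14 and 131.4 at ZT2 in ADX livers, against 112.7 at ZT14 and 139.3 at ZT2 in sham livers. Its dimmest probe set was at least 2.42-fold lower at ZT14 in ADX, from signals under 10 units. The related kinase gene Csnk1a1 had a log2 difference of -0.28 in ADX and -0.03 in sham. Of the genes for F-box proteins that bind phosphorylated PER, Btrc had 0.29 in ADX and -0.25 in sham, and Fbxw11 had 0.14 in ADX and 0.04 in sham. Csnk1e was Absent on all 4 arrays. Between ADX and sham, 0 of the 22 partner genes were called at ZT2, where 2.16% of all measured genes were. At ZT14 0 were called too, against 3.14% of all measured genes.

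By Euclidean distance between log2 profiles over the 4 arrays, each centred on its mean, the gene nearest to Per2 among 4559 others Present on at least 2 arrays was Bhlhe40, at 0.21, and the gene nearest to Bhlhe40 was Per2. Next for Per2 were Hspa1b at 0.52, a heat shock gene with a near-identical copy, and Upp2 at 0.54, a uridine phosphorylase gene. The same genes followed for Bhlhe40, at 0.35 for Hspa1b and 0.70 for Upp2. Upp2 had 1712 units at ZT14 and 303.0 at ZT2 in ADX livers, and 1869 at ZT14 and 462.4 at ZT2 in sham livers. Nearest to Per3 were Pmf1 at 0.22, Nsmf at 0.27 and Frat1 at 0.29, all Present at ZT2 and Absent at ZT14 in both operations. With 4 arrays, such a likeness describes these arrays and nothing further.

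**Figure D4:**
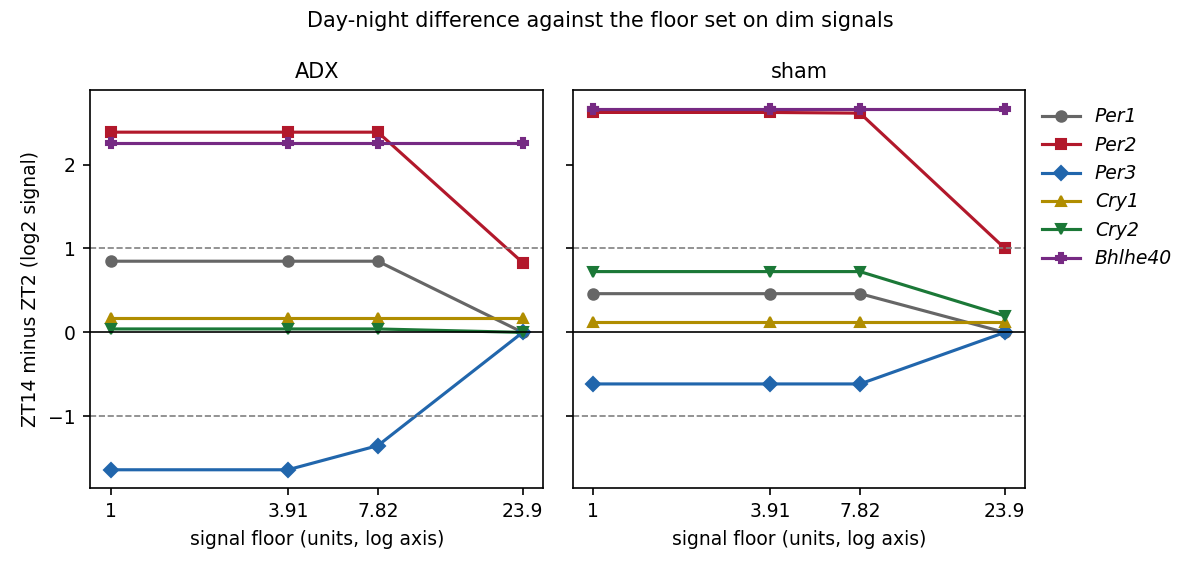
Day-night difference of the 6 repressor genes (ZT14 minus ZT2, log2 signal, vertical axis) against the floor set on dim signals (1, 3.91, 7.82 and 23.9 units, log axis), in ADX (left) and sham (right), 1 line per gene, with 2-fold marked by dashed lines. Bhlhe40 and Cry1 do not move, while at the highest floor Per2 drops to 0.83 in ADX and lies on the 2-fold line in sham. At that floor Per1 and Per3 are at 0.00 in both, and Cry2 is at 0.00 in ADX and 0.20 in sham.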

How the data were processed

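Total RNA of liver was hybridised to 4 MG_U74Av2 arrays, grouped by operation and time from the sample titles. Per the file headers, the deposited values are Affymetrix Signals from single-array analysis, which are linear intensities. A Present, Marginal or Absent call and its p-value were deposited beside each, of which the call alone was used. No software, version or scaling target is named in the files or labels. The series value table held the same intensities (largest difference 0).

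Each array was multiplied (factors 1.067, 1.043, 0.977 and 0.925 for ADX ZT14, ADX ZT2, sham ZT14 and sham ZT2) to a common 2% trimmed mean. The 66 control probe sets were dropped, signals under 3.91 units (the median Absent signal, above the lowest Present signal of 3.05) were set to that floor, and log2 was taken. Present calls covered 44.4%, 46.5%, 44.9% and 47.0% of probe sets and actin 3' to 5' ratios were 1.73, 1.89, 1.71 and 1.69, in the same order. Genes were named from the platform annotation (1 symbol only), and a gene was represented by its brightest probe set.

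The fit used limma 3.58.1 (lmFit, eBayes) in R 4.3.3 on probe sets Present on at least 2 arrays, adjusted over all of them. Other steps ran in Python 3.11.15. Calls and fit were run on simulated data in which only probe sets Present on all 4 arrays were changed. Changes in probe sets Absent on an array, as for Per1, Per2 and Per3, were not covered. The robust SD is 1.4826 times the median absolute deviation. The named genes are the 6 repressors, the partner genes past 2-fold in any comparison, and the 3 nearest profiles of each repressor spanning at least 1 on the log2 scale. Other partner genes, and the dim Csnk1d probe set, were named after their values were seen. The members and lists were chosen with earlier results of these data known. Alternatives changed the scaling, floor, fold, detection rule, probe set rule, variance trend and model terms.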

Additional observations from a re-analysis of the deposited data

Results flagged for a closer look

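Of 12 genes compared (the 6 repressors and the 6 partner genes past 2-fold), the log2 difference of ADX minus sham had opposite signs at the 2 times in 8. The share of all measured genes with opposite signs was not counted, so this count is not a result about these genes. That count depends on the setting: it was 6 with quantile normalization and 5 with signals as deposited, where Per2 and Per3, and with signals as deposited Per1 too, were below 0 at both times. It was 9 with a floor of 1 unit, 8 with the doubled floor and 2 with a floor of 23.9 units. The difference between the times was not tested, since each value is 1 array minus 1 array. Cry2 had -0.32 at ZT14 and 0.37 at ZT2, Bhlhe40 -0.08 at ZT14 and 0.34 at ZT2, Per2 -0.17 at ZT14 and 0.07 at ZT2, and Per1 0.12 at ZT14 and -0.27 at ZT2. Per3 had -1.02 at ZT14 and 0.00 at ZT2, a value just above 0. Among the partner genes, Usp2 had -0.45 at ZT14 and 1.11 at ZT2, where both arrays were Absent. Arntl had 0.76 at ZT14, with the ADX array Absent, and -0.11 at ZT2, and Nr1d2 had 0.38 at ZT14 and -0.42 at ZT2. With the scaling and floor of the main results, the day-night difference had one sign in ADX and sham for all 12 genes. With quantile normalization Cry2 had -0.03 in ADX and 0.61 in sham. With a floor of 23.9 units Per1 and Per3 had 0.00 in both, and Cry2 had 0.00 in ADX.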

How the results depend on the processing

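Per2 and Bhlhe40 were called higher at ZT14 in sham under all 8 alternatives, and in ADX under all 8 except a floor of 23.9 units, where Per2 fell short at 0.83. That floor left 1 of 6 repressor genes called in the ADX pair (Bhlhe40), against 3 at the floor of 3.91. A cutoff of 1.5-fold gave 4 in the sham pair (Per3 and Cry2 added), against 2. At ZT14, Per3 as the 1 gene called between ADX and sham was lost (0 called) with the doubled floor and with 23.9 units. Of the partner genes, none called between operations became 1 at ZT2 without the need for a Present call (Usp2), 3 at ZT2 at 1.5-fold (Ncoa1, Rora, Tef), 1 at ZT14 with probe sets averaged (Nfil3) and 1 at ZT14 at 1.5-fold (Rora). The time effect of the limma fit, 2 probe sets, became 20 with signals as deposited, 154 with a variance trend and 11 without a term for operation, and Per2 and Bhlhe40 passed in these 3 settings. It became 1 with a floor of 1 unit, 1 over probe sets Present on all arrays, and 0 with the doubled floor, 23.9 units or no detection filter (747, 881 and 1414 at an unadjusted p under 0.05). The operation effect, 0 in the limma fit, became 1 with quantile normalization, with signals as deposited, with a variance trend and without a term for time. The cause of the changes in the limma counts was not tested. Low signals limit Per1, Per2 at ZT2, Per3 and Cry2. No paired analysis was possible because each group has 1 array, beyond the operation term of the limma fit, which sets ZT14 against ZT2 within each operation.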
